A study of Mus musculus with 2 samples.

Results

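The Mir30 family of microRNA genes was examined in cortex tissue of the left brain hemisphere from female mice of the strain B6CASTF1/J, first-generation offspring of C57BL/6 and castaneus parents, aged 4 days. Its members were taken by their annotated symbols, Mir30a, Mir30b, Mir30c-1, Mir30c-2, Mir30d and Mir30e, which are 6 of the 2202 microRNA genes in the count tables. The study holds 1 group of 2 animals, named biological replicates 1 and 2, with 1 small RNA library each. The labels give no treatment, no altered gene and no second age or tissue, and they list 1 donor record for both animals. No comparison between conditions exists, so the values below are levels and their spread over both animals, with no test between groups.

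A microRNA gene is transcribed into an RNA that folds into a hairpin, and the enzymes Drosha and Dicer cut the hairpin into a short duplex. Either strand of the duplex can guide an Argonaute protein to messenger RNAs. The strand from the 5′ arm is called 5p and that from the 3′ arm 3p, and the bases from position 2 to position 8, the seed, choose most targets. The miR-30 family is known as a broadly expressed family that is abundant in kidney, muscle, heart and brain, and its 5p products are known to repress regulators of cell adhesion, of the switch between epithelial and mesenchymal states, and of autophagy. In neurons miR-30a-5p is known as a repressor of the growth factor gene Bdnf.

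The mature products are shown because the family is defined by its shared seed and because single bases separate its members. RefSeq sequences on GRCm38.p6 were matched for 4 of the 6 members, and Mir30b and Mir30d have no entry in that table. Each product is written 5′ to 3′ with its seed in capitals. The 5p products were these:
miR-30a-5p: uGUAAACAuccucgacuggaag
miR-30e-5p: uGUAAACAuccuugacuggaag
miR-30c-5p, made from both Mir30c-1 and Mir30c-2: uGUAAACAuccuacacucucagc
miR-384-5p, made from Mir384 on chromosome X: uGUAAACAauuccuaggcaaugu

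With positions counted from 1 at the 5′ end, miR-30a-5p and miR-30e-5p were identical over 21 of 22 bases and differed by C13U. Over the 22 bases aligned, miR-30a-5p and miR-30c-5p shared 17, with the same 12 bases at the 5′ end and differences at C13A, G14C, G18C, G19U and A20C. The seed GUAAACA occurred in the products of 5 genes of the RefSeq table, 4 distinct sequences in all, and 1 of these genes, Mir384, is outside the family. Its product miR-384-5p, known for a part in long-term potentiation in the rodent hippocampus, shared 12 of 22 bases with miR-30a-5p.

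The 3p products of the 4 members with an entry fell into 2 seed groups, which the shared 5p seed does not show:
miR-30a-3p: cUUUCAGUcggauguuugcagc
miR-30e-3p: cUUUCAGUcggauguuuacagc
miR-30c-1-3p: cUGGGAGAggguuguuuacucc
miR-30c-2-3p: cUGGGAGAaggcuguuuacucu

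The products of the Mir30a and Mir30e hairpins differed by G18A, and those of the Mir30c-1 and Mir30c-2 hairpins by G9A, U12C and C22U. The seed UUUCAGU was found in no product outside the family. The seed UGGGAGA was also that of miR-6958-5p, whose gene Mir6958 had 16 counts in replicate 1 and 11 in replicate 2.

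The 6 genes form 3 pairs of neighbours on mm10. Mir30a (ENSMUSG00000065405.3) is on chromosome 1, plus strand, at 23272269 to 23272339, and overlaps no other annotated gene. Its partner Mir30c-2 (ENSMUSG00000065567.1) lies 19361 bases downstream, at 23291701 to 23291784, and overlaps an exon of the long noncoding RNA Gm27028. Mir30d (ENSMUSG00000065437.1) is on chromosome 15, minus strand, at 68341208 to 68341289. It overlaps an exon of the long noncoding RNA Gm20732 and an exon of the annotated gene Gm37296, both on its strand. Mir30b (ENSMUSG00000065476.2) follows 3697 bases downstream, at 68337415 to 68337510, and overlaps an exon of the noncoding transcript Gm26621. Mir30e (ENSMUSG00000065409.1) is on chromosome 4, minus strand, at 120772606 to 120772697. Mir30c-1 (ENSMUSG00000065490.1) lies 2983 bases downstream of it, at 120769534 to 120769622. Both of these are in introns of Nfyc, on the strand of that gene, which encodes a subunit of the transcription factor NF-Y.

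**Figure D1:**
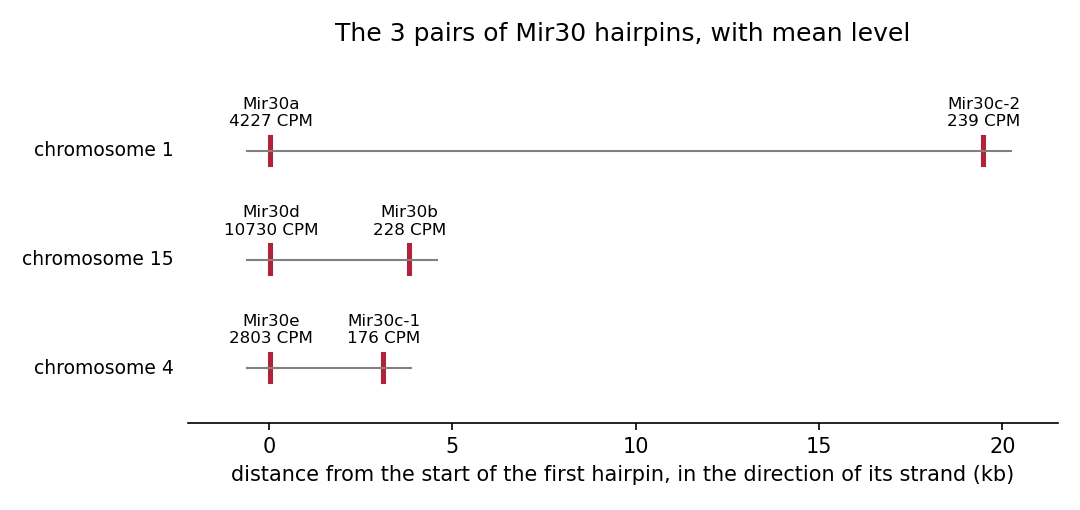
Each row is 1 pair of Mir30 hairpins drawn to scale, with the distance in kb from the start of the upstream hairpin in the direction of its strand on the x axis and the mean CPM of both libraries above each hairpin. In each pair the upstream hairpin has the higher level by assigned counts, from 2803 CPM for Mir30e to 10729.7 CPM for Mir30d, against 176 to 239 CPM downstream. The levels of Mir30c-2 and Mir30c-1 may leave out reads that match both of their hairpins.

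The libraries were of similar size. MicroRNA genes received 3555469 reads on their own strand in replicate 1 and 2761003 in replicate 2, which were 30.4% and 27.8% of all reads. Reads that mapped to several places were 45.8% and 41.0% and were assigned to no gene. Levels are given in CPM, which divides the count of a gene by the sum over all microRNA genes of its library (1 CPM is 3.56 reads in replicate 1 and 2.76 in replicate 2). Each mean is over the 2 animals and stands with its SD (n = 2). Of 9 microRNAs listed for neurons, 6 reached 2 CPM in both libraries. Their list had a summed level of 65261 CPM in replicate 1 and 47613 CPM in replicate 2. Genes of every other list below were detected too, so detection does not identify the tissue. Of 5 striated muscle microRNAs 1 was detected, with sums of 35.2 and 14.1 CPM. The other 4, the copies of Mir1a and Mir133a, had no count. Copies share their main products and shared reads were assigned to no gene, so these zeros say nothing about muscle RNA. The neuron list holds such copies as well, so its sums may leave out reads. Epithelial microRNAs (5 listed, 4 detected) summed to 1930.0 and 93.8 CPM in replicates 1 and 2, and those of red cells (2 of 2 detected) to 23.3 and 519.7 CPM. Vascular microRNAs (3 of 3) summed to 16319 and 23815 CPM, and those of microglia and leukocytes (4 of 4) to 514 and 472 CPM. The part of these differences in the Mir30 levels was not tested.

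All 6 Mir30 genes passed the detection minimum of 2 CPM in each library, which 20.4% of all 2202 microRNA genes did. Together they had 65519 counts in replicate 1 and 50738 in replicate 2. These were 1.84% of microRNA counts in replicate 1 (95% Wilson interval 1.83 to 1.86) and 1.84% in replicate 2 (1.82 to 1.85). The share of the family therefore differed between the animals by less than counting error, which is all that such intervals cover, since amplified reads are not independent molecules.

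Mir30d was the leading member. It had 38911 counts in replicate 1 and 29033 in replicate 2, which gave 10944 and 10515 CPM and a mean of 10729.7 ± 303 CPM. It ranked 20 among all microRNA genes in replicate 1 and 19 in replicate 2. The gene held 59.4% (59.0 to 59.8) of the counts of the family in replicate 1 and 57.2% (56.8 to 57.7) in replicate 2. Mir30d thus held most of the reads assigned to the family in both animals. Reads that mapped to several places were assigned to no gene, so its part of all reads of the family is not known.

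Mir30a, the member best known for repressing Bdnf and the autophagy gene Becn1, had 15010 counts in replicate 1 and 11685 in replicate 2. Its levels were 4222 and 4232 CPM, with a mean of 4227 ± 7.42 CPM, at ranks 51 and 46. It held 22.9% and 23.0% of the counts of the family. The level of Mir30a was nearly equal in both animals and lay below that of Mir30d in each.

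Mir30e, in the Nfyc intron, had 9216 counts in replicate 1 and 8320 in replicate 2, at 2592 and 3013 CPM. Its mean was 2803 ± 298 CPM, and it ranked 70 and 61. It held 14.1% (13.8 to 14.3) and 16.4% (16.1 to 16.7) of the counts of the family, so its share was higher in replicate 2 by more than counting error. Mir30d, Mir30a and Mir30e together held 96.4% (96.2 to 96.5) of its counts in replicate 1 and 96.6% (96.5 to 96.8) in replicate 2.

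By assigned counts the other 3 members stood more than 10 times lower. Mir30c-2 had 831 and 673 counts, at 234 and 244 CPM. Mir30b had 896 and 565 counts, at 252 and 205 CPM. Mir30c-1 was the lowest member, with 655 and 462 counts, at 184 and 167 CPM. The means were 239 ± 7.09 CPM for Mir30c-2, 228 ± 33.5 CPM for Mir30b and 176 ± 11.9 CPM for Mir30c-1, and each held between 0.911% and 1.37% of the counts of the family.

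**Figure D2:**
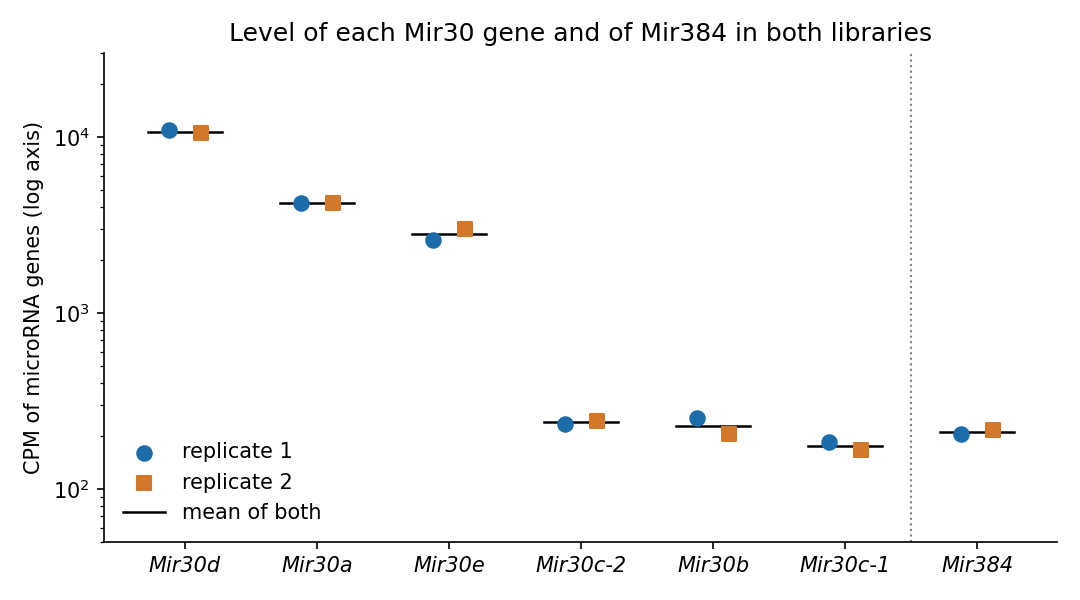
Points show the level of each gene in CPM on a log axis, circles for replicate 1 and squares for replicate 2, with a line at their mean, and Mir384, which shares the 5p seed, stands right of the dotted line. Mir30d, Mir30a and Mir30e lie between 2592 and 10944 CPM, while the other genes lie between 167 and 252 CPM.

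The order of level by assigned counts was Mir30d, Mir30a, Mir30e, then Mir30c-2 and Mir30b, then Mir30c-1. The first 3 did not overlap with each other or with the rest over both animals. Mir30c-2 and Mir30b changed places between the animals and did not differ beyond their spread. Mir30b and Mir30c-1 did not overlap, with 205 CPM as the lower value of Mir30b and 184 CPM as the higher value of Mir30c-1. Counted per hairpin length, the levels of Mir30d were 13346 and 12824 CPM per 100 bases in replicates 1 and 2. On that scale Mir30c-2 had 278 and 290.2 and Mir30b 263 and 213, so that Mir30c-2 was the higher of the pair in both animals. The order of the others was the same on both scales. Reads of microRNAs cover a mature arm and not the whole hairpin, so the length of the hairpin need not scale with the count.

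**Figure D3:**
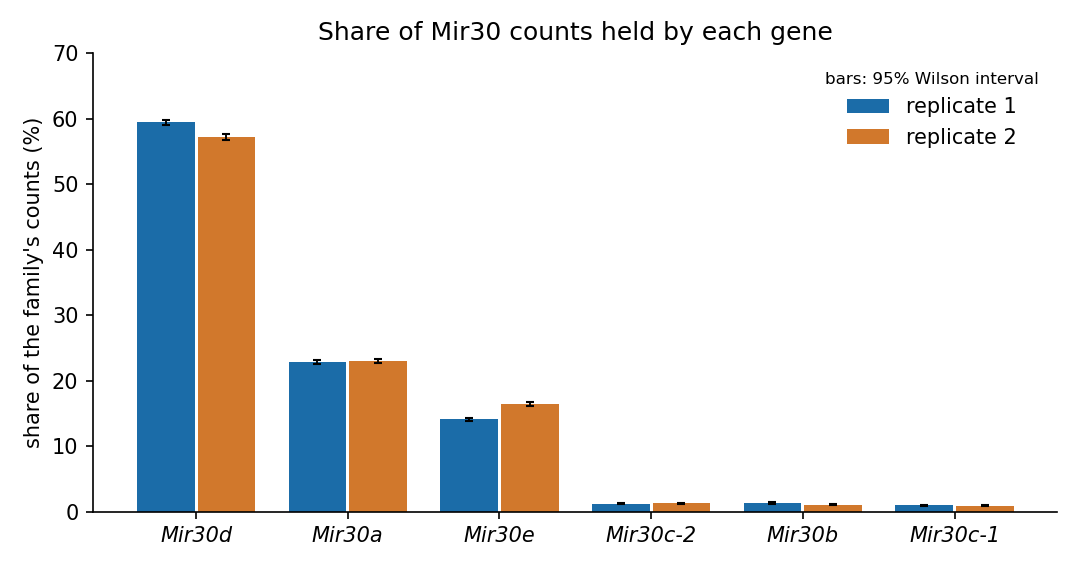
Bars show the percent of all Mir30 counts held by each gene in replicate 1 (blue) and replicate 2 (orange), with 95% Wilson intervals. Mir30d holds 59.4% and 57.2%, and Mir30e holds 14.1% and 16.4%.

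The levels of Mir30c-1 and Mir30c-2 carry a limit that the hairpins themselves show. Both hairpins are printed 5′ to 3′, with the longest stretch they share in capitals:
Mir30c-1: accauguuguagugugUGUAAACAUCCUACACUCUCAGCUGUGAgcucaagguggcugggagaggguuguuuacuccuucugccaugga
Mir30c-2: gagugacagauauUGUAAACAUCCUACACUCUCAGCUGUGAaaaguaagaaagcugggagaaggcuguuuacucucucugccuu

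The shared stretch was 28 bases long and contained the whole of miR-30c-5p, which has 23 bases. A read that lies wholly inside it matches both hairpins equally, and reads mapped to several places were assigned to no gene. The counts of Mir30c-1 and Mir30c-2 are therefore uncertain and may leave out reads of miR-30c-5p. How many such reads there were cannot be told from the gene counts. The longest stretch shared by the Mir30a and Mir30e hairpins was 18 bases, in the 3p product and the base before it, and was shorter than their 22-base products. No hairpin of these 4 members shared more than 11 bases in a row with a hairpin of another family in the RefSeq table.

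By assigned counts, the upstream gene was the higher one in all 3 pairs. In the pairs with Mir30c-2 and Mir30c-1, the lower count may leave out reads of miR-30c-5p. The ratios of these pairs, here and below, may therefore be too high, and their intervals do not cover this. Whether the order within them would hold with such reads cannot be told. Mir30d had 43.4 times the count of Mir30b in replicate 1 (95% exact interval 40.6 to 46.5) and 51.4 times (47.3 to 55.9) in replicate 2. Mir30a had 18.1 times (16.8 to 19.4) and 17.4 times (16.1 to 18.8) the count of Mir30c-2. Mir30e had 14.1 times (13.0 to 15.3) and 18.0 times (16.4 to 19.8) the count of Mir30c-1. The first of these pairs and the last were more unequal in replicate 2, with intervals that did not overlap, and the pair on chromosome 1 had overlapping intervals.

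Such inequality was common among neighbouring microRNA genes. The tables held 100 pairs of neighbours on 1 strand at most 25000 bases apart with both genes detected, a comparison chosen after the Mir30 levels had been seen, and some of these pairs share a gene. The median pair differed 6.73-fold in level, with quartiles of the log2 ratio at 1.14 and 4.79. The log2 ratio was 5.56 for Mir30d over Mir30b, 4.15 for Mir30a over Mir30c-2 and 3.99 for Mir30e over Mir30c-1. At least as large a ratio was found in 16, 30 and 32 of the 100 pairs, each count including the Mir30 pair itself. The upstream gene was the higher one in 55 of the 100 pairs. The log2 ratio of a pair does not depend on library size, and between the animals it changed by -0.06 for Mir30a and Mir30c-2, 0.24 for Mir30d and Mir30b, and 0.36 for Mir30e and Mir30c-1. The median absolute change over all pairs was 0.42.

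**Figure D4:**
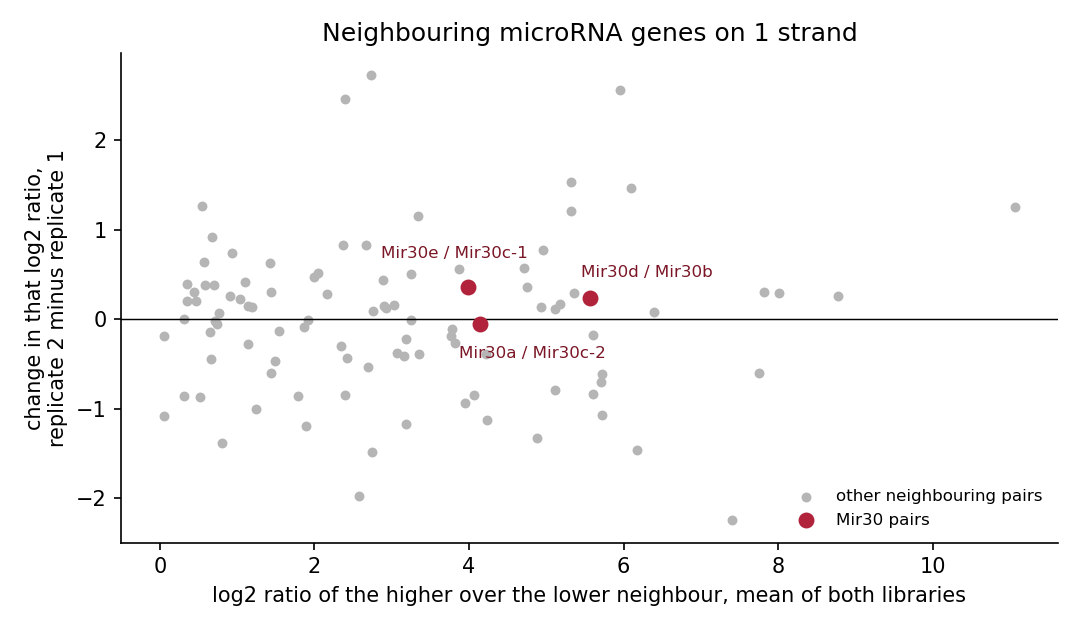
Each point is a pair of neighbouring microRNA genes, with the log2 ratio of the higher over the lower gene on the x axis and that ratio in replicate 2 minus that in replicate 1 on the y axis. The 3 Mir30 pairs, in red, lie at 3.99 to 5.56 on the x axis and at -0.06 to 0.36 on the y axis.

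Between the animals, none of the 6 members was 2-fold or more apart. Among the 308 genes whose counts summed to at least 100 over both libraries, 49 were, or 15.9%, so that a count of 0 among 6 genes is close to that background. Ratios are log2 values of replicate 2 over replicate 1, scaled by TMM (trimmed mean of M-values) factors, and values below 0 mean higher in replicate 1. Mir30b had the ratio farthest from 0, at -0.32 (counting interval -0.47 to -0.16), or 1.25-fold higher in replicate 1. Mir30d was 1.05-fold higher in replicate 1 (-0.07, -0.10 to -0.05). Mir30e was 1.15-fold higher in replicate 2 (0.20, 0.16 to 0.24). The intervals of Mir30a (-0.01, -0.05 to 0.02), Mir30c-2 (0.04, -0.11 to 0.19) and Mir30c-1 (-0.16, -0.33 to 0.02) included 0. The median over the members was -0.04, and the median over the 308 genes was -0.09, with quartiles at -0.47 and 0.24. The 2 copies that share miR-30c-5p thus had ratios on opposite sides of 0, each within counting error of it. Both ratios may leave out reads of miR-30c-5p, since reads that mapped to several places were assigned to no gene. With 1 library per animal, a difference between animals cannot be told apart from one of dissection or library preparation.

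**Figure D5:**
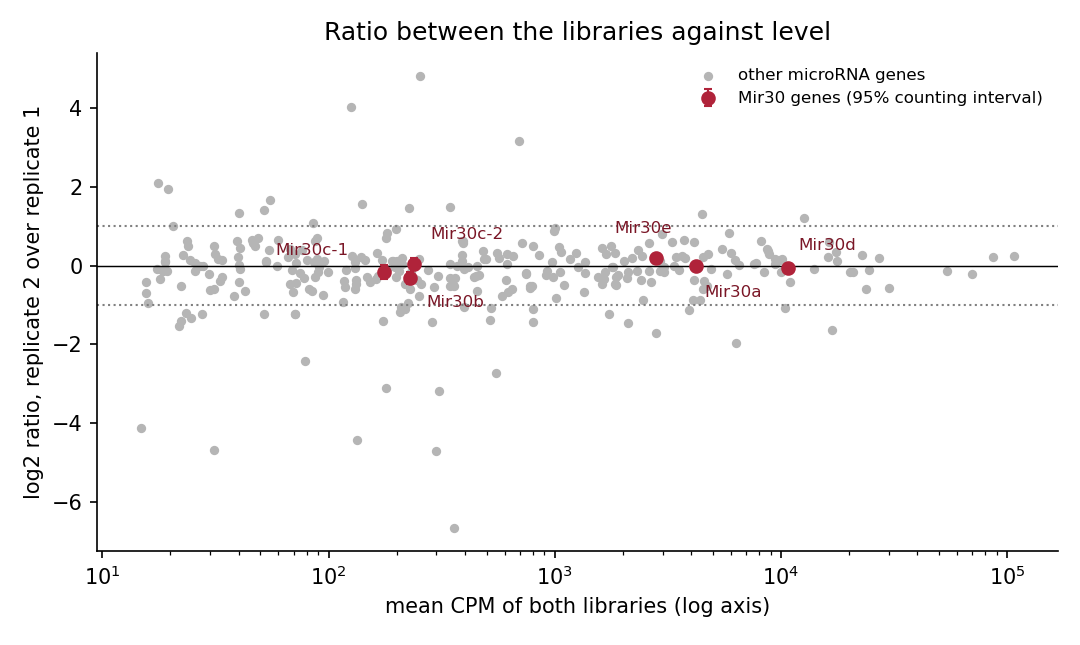
The log2 ratio of replicate 2 over replicate 1 is plotted against mean CPM on a log axis for the 308 microRNA genes whose counts summed to at least 100, with the Mir30 genes in red and their 95% counting intervals. Dotted lines mark a 2-fold difference, and the Mir30 genes lie between -0.32 and 0.20, inside both lines.

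Families that also come from several loci gave these values beside the Mir30 family, with no test of the differences. The Mir181 family, known from neurons and lymphocytes, held 1.88% (1.87 to 1.89) of counts in replicate 1 and 2.44% (2.42 to 2.46) in replicate 2. The Mir23, Mir27 and Mir24 genes, known from vessels, held 1.12% (1.11 to 1.13) and 1.24% (1.23 to 1.25). The Mir26 family, which lies in introns of Ctdsp phosphatase genes, held 0.578% (0.570 to 0.586) and 0.390% (0.383 to 0.397). In each of these the intervals of the replicates did not overlap. Some genes share a mature product with another copy, and shared reads were assigned to no gene. Such genes were 4 of 6 in the Mir181 family, 2 of 6 among the Mir23, Mir27 and Mir24 genes and 2 of 3 in the Mir26 family. In the Mir30 family they were Mir30c-1 and Mir30c-2, 2 of the 4 genes with a sequence entry. The shares of all these families, that of Mir30 included, and the ratios of such genes therefore leave out an unknown number of reads. Log2 ratios of single genes ran from -1.24 to 1.33 in the Mir181 family and from -1.21 to 0.61 among the Mir23, Mir27 and Mir24 genes, against -0.32 to 0.20 in the Mir30 family. In the Mir26 family they ran from -4.42 to -0.52 over the 2 genes with a summed count of at least 100. Of the assigned counts, the leading gene held 39.9% ± 1.47 in the Mir181 family (Mir181d) and 64.2% ± 2.19 among the Mir23, Mir27 and Mir24 genes (Mir23b). Mir26b held 97.5% ± 2.94 in the Mir26 family, beside 58.3% ± 1.53 for Mir30d in its own. Mir181d, Mir23b and Mir26b share no product with another copy, while other genes of their families do. These percentages may therefore be too high, and that of Mir30d may be as well.

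Mir384, the gene outside the family whose 5p product has the same seed, is on chromosome X, minus strand, at 105344282 to 105344369, and overlaps no annotated gene. It had 733 counts in replicate 1 and 597 in replicate 2, at 206 and 216 CPM (211 ± 7.12). By assigned counts its level overlapped that of Mir30b and lay above that of Mir30c-1 in both animals. The count of Mir30c-1 may leave out reads of miR-30c-5p, so whether that order would hold with them cannot be told. The log2 ratio between the animals was 0.05 (-0.11 to 0.21).

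Genes outside the family were also ranked by likeness of level, as the distance between log2(CPM + 1) values over both libraries, which 2 libraries can only describe. Nearest to Mir30d were Mir100 (10458 and 9547 CPM, distance 0.15), Mir130a (9427 and 10736 CPM, 0.22) and Mir433 (9323 and 10432 CPM, 0.23). Nearest to Mir30c-1 were Gm23450 (188 and 163 CPM, distance 0.04), Mir1224 (186 and 179 CPM, 0.09) and Mir669o (179 and 151 CPM, 0.15).

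Mir30f, annotated on the plus strand of chromosome 4 over the same bases as Mir30e, was the only other microRNA gene within 10000 bases of a member. Its mature product is shown since it reads the same hairpin from the other strand and starts with the letters of the family seed:
miR-30f: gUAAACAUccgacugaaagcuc

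The letters GUAAACA stand at positions 1 to 7 of miR-30f and not at positions 2 to 8, so its own seed is UAAACAU, which no other product of the table has. Its place overlaps that of miR-30e-3p by 19 bases. No read was counted for Mir30f on its own strand in either library, so that levels of up to 0.844 and 1.09 CPM are possible in replicates 1 and 2. No member had a read on the opposite strand.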

How the data were processed

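Small RNA libraries of 2 animals were used. The deposited values are raw counts of reads for each microRNA gene, with a table for every library, and were neither pooled nor normalized by the authors. Per the deposited notes the build was mm10 with annotation M21. Aligner, counter, trimming and read filters are not given in the sources used here. The tables have no column names, and their 3 columns were read from the layout as unstranded, sense and antisense reads. The sense column was used. Counting covers the hairpin, so 5p and 3p reads were added up.

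All 2202 gene IDs matched annotation M21. Library sizes leave out the totals that name no gene (in replicates 1 and 2, 19.3% and 25.6% unmapped, 4.50% and 5.63% outside microRNA genes, the rest mapped to several places). CPM used the summed gene counts. Ratios used TMM factors of edgeR 4.0.16 with 0.5 added to each count, and the calculation was tested on simulated data. Intervals are 95% Wilson for shares and exact (Clopper-Pearson) for ratios, from scipy 1.17.1, and cover counting error only. A count of 0 allows up to 3. The effect of castaneus variants on mapping was not tested.

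Named genes were the members, genes sharing their 5p seed, Mir384 and Mir30f, microRNA genes within 10000 bases, and the 3 genes nearest in level to the leading and to the lowest member. Mir6958 was named after its seed match was seen. Members, lists and comparison families were chosen with earlier results of these data known. Alternatives tried were strand, scaling, detection minimum, fold, count filter, added count and leaving out each replicate.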

Additional observations from a re-analysis of the deposited data

Results flagged for a closer look

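Reads were recorded in a column that the levels do not use. On the strand opposite to its annotation, Mir30f was listed with 9216 reads in replicate 1 and 8320 in replicate 2, far above the 3 counts that a count of 0 allows. These numbers are the same as the counts of Mir30e on its own strand in each library. Both genes cover the same bases of chromosome 4 on opposite strands, so these reads are already in the level of Mir30e.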

How the results depend on the processing

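The choice of strand moved the values of the family most. With reads of both strands, where Mir30e and Mir30f overlap, Mir30e was listed at 0 CPM in place of 2803 CPM, 5 of the 6 members were detected, the share of the family in microRNA counts was 1.66% in place of 1.84%, and the share of Mir30d in the family was 68.8% in place of 58.3%. This follows from how that column treats reads of overlapping genes, which stand in its ambiguous total (1.82% of the reads of replicate 1). The CPM of Mir30d, Mir30a and Mir30c-2 also moved by more than the spread between replicates under that choice, to 11436, 4505 and 254 CPM, where the summed count is smaller. All 6 members were detected with minimums of 1 and 10 CPM and in each library alone. The share of all genes detected was not counted for these settings or for reads of both strands. No member was 2-fold apart under TMM, RLE factors or library size, against 15.9% of the 308 genes under each. With a summed count of at least 20, or with no filter, none was either, against 20.0% and 39.1% of the genes. None was 1.5-fold apart, against 31.8% of the 308 genes. The log2 ratios of the members stayed inside their counting intervals in all 23 alternatives that could be computed. These alternatives could move the ratios only little, so this is a weak check. Apart from Mir30e, the members had the same counts with both strands. The TMM factors were 0.994 in replicate 1 and 1.006 in replicate 2. Mir30e has no ratio with reads of both strands, where its count is 0. The ratio of Mir30a was -0.01 under TMM and 0.00 with library size. Mir30c-2 over Mir30b had a log2 ratio of 0.06, of 0.26 per hairpin length, 0.25 without replicate 1 and -0.11 without replicate 2. With neighbours at most 10000 bases apart the median pair differed 6.67-fold. Both of these were chosen after seeing the data. With 2 libraries, leaving out either gives the other's value and is no check of stability.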
